A study of Oryza sativa with 6 samples.

Results

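Of 9931 single-isoform gene loci reconstructed in the rice cultivar N22, 47 stood at 2 TPM or more in each of 3 control libraries of developing seeds and under 1 TPM in each of 3 libraries of heat and drought stressed seeds. TPM is the share of transcripts that a locus holds, corrected for transcript length and scaled to the same total in every library. The 47 loci were selected on these TPM values, so the difference between control and stress is a description of them and carries no test. They made up 0.539% of the 8718 single-isoform loci that stood at 2 TPM or more in all control libraries, and the other 8671 of those loci are the ones they are compared with below. In all, 13343 loci were quantified, of which 13225 were B loci, that is loci built by collapsing long reads on a genome sequence.

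All plants were N22, a cultivar of the aus subgroup of Oryza sativa, and all were grown in the field. Control plants stood in flooded soil, whereas stressed plants met heat together with drought, under a shelter that kept out rain, while grain filling was beginning. The study describes 3 biological replicates per condition, and each library was made from RNA of developing seeds. The titles of control and stressed libraries carry the same code, EGF, which they do not spell out, so no difference in stage is labelled. Heat and drought were applied together, so their effects cannot be told apart.

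During grain filling the endosperm of a cereal seed lays down starch and storage proteins, the embryo grows, and the maternal tissues around them, nucellus and pericarp, feed both and are in part broken down. Heat and drought in this period are known to shorten filling and to reduce grain weight. RNA was taken from developing seeds in bulk, so fewer cells of a type and less RNA per cell cannot be told apart, nor can a difference in developmental stage at harvest. None of the 47 loci is paired with a gene name in the sources used here, so no function is given for any of them, and the tissue could not be checked against marker genes.

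The 6 libraries held 20623931 to 24624992 estimated counts after rounding per locus. The TMM factors, which correct library sizes for differences in composition, were 1.10 to 1.2 in control and 0.842 to 0.905 under stress. TPM does not carry this correction. On the TPM scale the other 8671 loci kept a median of 70.3% of their control level, whereas on the TMM scale the median log2 fold change over all loci tested was -0.02. The limits at 1 and 2 TPM are therefore passed more easily in the direction from control to stress than in the reverse. After TPM was divided by the TMM factors, 32 loci still met the limits. The mirrored limits are under 1 TPM in every control library and 2 TPM or more in every stressed one. They were applied to uncorrected TPM only, so how far composition accounts for the small number meeting them was not tested. The number of loci expressed under stress was not counted either. Only 2 loci met the mirrored limits. These were B6387, at 0.737, 0.430 and 0.575 TPM in control and 5.45, 3.88 and 3.44 under stress, and B8055, at 0.966, 0.900 and 0.248 against 3.999, 3.71 and 2.13.

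Together the 47 loci summed to 234, 264 and 360 TPM in control replicates 1 to 3 (mean 286 ± 65.7, SD, n = 3), and to 20.8, 22.2 and 25.9 TPM in heat and drought replicates 1 to 3 (mean 22.9 ± 2.64). The corresponding estimated counts were 6492, 7499 and 9088 in control and 554, 567 and 630 under stress. The sums of the stressed libraries thus lay close together, while control replicate 3 held more than the other 2 control libraries. The 2 highest loci held 24.3%, 17.5% and 15% of the summed control TPM, so no locus dominated the group.

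**Figure D1:**
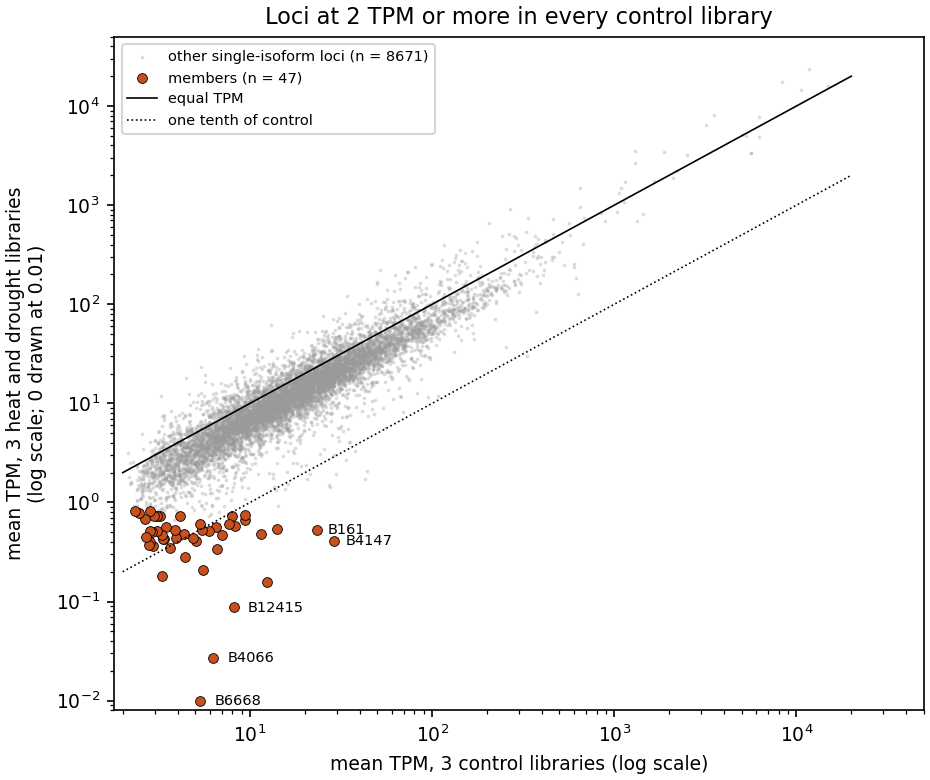
Mean TPM over the 3 heat and drought libraries against mean TPM over the 3 control libraries, both on log scales, for the 47 selected loci (members, red) and the 8671 other single-isoform loci at 2 TPM or more in every control library (grey). The solid line marks equal TPM and the dotted line 10% of control, under which 24 of the 47 loci lie, and B6668, at 0 under stress, is drawn at 0.01. TPM carries no TMM correction, and on this scale the grey loci kept a median of 70.3% of control.

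Most of the 47 loci were low already in control. Their mean control TPM had a median of 4.36 with quartiles of 3.07 and 6.79, against a median of 16.3 with quartiles of 8.66 and 31.4 for the other loci. By level, 5 loci stood at 10 TPM or more, 16 between 5 and 10 TPM, and 26 under 5 TPM. The share of expressed loci that fell under 1 TPM in all stressed libraries was 3.03% (26 of 859, Clopper-Pearson 95% interval 1.99 to 4.40) for loci of 2 to 5 TPM in control, and 0.884% (16 of 1810, 0.506 to 1.43) for those of 5 to 10 TPM. It was 0.102% (5 of 4882, 0.0333 to 0.239) for loci of 10 to 50 TPM. At 50 TPM or more, 0 of 1167 loci met the limit (interval up to 0.316%). These intervals treat loci as independent and cover no variation among libraries. Dividing TPM by the TMM factors moved the share at 2 to 5 TPM to 1.78%, outside its interval. A low locus has less far to fall to reach 1 TPM, and the share is a description of where the limits bite.

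**Figure D2:**
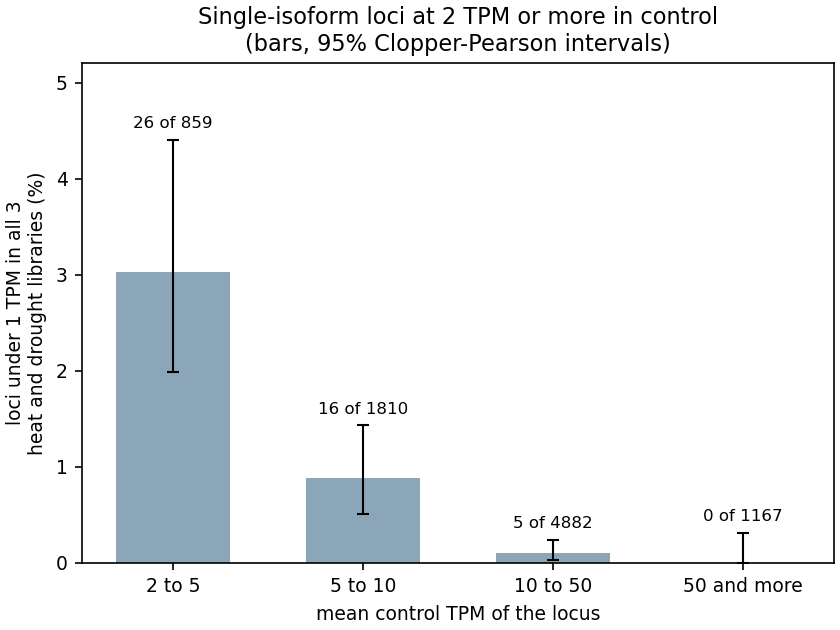
Share of single-isoform loci, in percent, that stood under 1 TPM in all 3 heat and drought libraries, by mean control TPM. Only loci at 2 TPM or more in every control library are included. Error bars are Clopper-Pearson 95% intervals, which treat loci as independent and cover no variation among libraries. The share was 3.03% in the lowest class and 0 of 1167 in the highest.

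The same limits were met by 4 of 3117 loci with several isoform models (0.128%), when the TPM of the isoforms was summed. These were B4065, B8079, B9658 and B12556, of which 3 were among the 114 such loci at 2 to 5 TPM in control. That share was 2.63% (interval 0.546 to 7.50), beside 3.03% of single-isoform loci at this level, and the difference was not tested.

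The locus with the highest control level was B4147, a model of 2077 bp on the minus strand. It stood at 34.6, 26.1 and 26.6 TPM in control (1657, 1305 and 1210 estimated counts) and at 0.439, 0.154 and 0.637 TPM under stress (21, 7 and 27 counts). Its lowest control library was thus far above its highest stressed library, and 1.41% of the control TPM was left. The log2 fold change was -5.68 (SE 0.32), a fold of 51.5 on normalised counts with a counting interval of 39.5 to 68.5. The second, B161 (1225 bp, minus strand), stood at 22.2, 20.3 and 27.3 TPM in control (595, 566 and 692 counts) and at 0.599, 0.276 and 0.719 TPM under stress (16, 7 and 17 counts), with a log2 fold change of -4.96 (SE 0.26). Both loci varied little among control libraries, and in both stressed replicate 2 was the lowest.

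B6645 (659 bp, plus strand) showed a wider spread. Its control libraries stood at 9.78, 8.92 and 23.7 TPM (124, 118 and 285 counts), and its stressed libraries at 0, 0.914 and 0.714 TPM (0, 11 and 8 counts). Control replicate 3 was 2.43 times the higher of the other 2 control libraries, and the log2 fold change was -4.22 (SE 0.68). B6741 (1132 bp, minus strand) was at 9.95, 12 and 15.3 TPM in control (243, 306 and 354 counts) and at 0.164, 0.129 and 0.185 TPM under stress (4, 3 and 4 counts). Its stressed libraries lay close to each other, with 1.28% of the control TPM left and a log2 fold change of -5.76 (SE 0.32). B10711 (1173 bp, minus strand) stood at 13.0, 11.8 and 9.78 TPM in control (331, 313 and 236 counts) and at 0.197, 0.414 and 0.844 TPM under stress (5, 10 and 19 counts), with a log2 fold change of -4.13 (SE 0.35). Here control replicate 3 was the lowest control library and stressed replicate 3 the highest stressed one.

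B2475 (1852 bp, minus strand) came sixth by control level, and control replicate 1 stood apart. Its control TPM was 2.62, 13.7 and 12 (111, 606 and 480 counts) and its stressed TPM 0.426, 0.746 and 0.828 (18, 30 and 31 counts). The highest control library was 5.23 times the lowest, and the log2 fold change was -3.35 (SE 0.64). B7859 (1642 bp, plus strand) had the widest control spread of the 47, a ratio of 7.01 between highest and lowest. It stood at 2.48, 2.32 and 16.3 TPM in control (92, 90 and 573 counts) and at 0.486, 0.397 and 0.518 TPM under stress (18, 14 and 17 counts). Its mean control level of 7.03 TPM (SD 8.02) thus rested on control replicate 3, and its log2 fold change of -3.39 (SE 0.91) became -1.91 when that library was left out.

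Among the loci with most reads in control, B12415 (1767 bp, plus strand) fell furthest of those with over 500 counts. It stood at 4.40, 12.5 and 7.56 TPM in control (177, 523 and 288 counts) and at 0.149, 0 and 0.112 TPM under stress (6, 0 and 4 counts), with 1.07% left and a log2 fold change of -6.01 (SE 0.65). The value ran from -5.43 without heat and drought replicate 2, the library at 0, to -6.75 without heat and drought replicate 1, its highest stressed library. B2999 (1385 bp, plus strand) was at 4.23, 8.42 and 12 TPM in control (130, 270 and 350 counts) and at 0.391, 0.445 and 0.884 TPM under stress (12, 13 and 24 counts), with a log2 fold change of -3.37 (SE 0.42). B7505 (1415 bp, plus strand) had 4.93, 5.69 and 8.95 TPM in control (155, 187 and 267 counts) and 0.382, 0.870 and 0.431 TPM under stress (12, 26 and 12 counts), with a log2 fold change of -3.04 (SE 0.36). In all 3 loci reads were still counted in at least 2 stressed libraries.

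**Figure D3:**
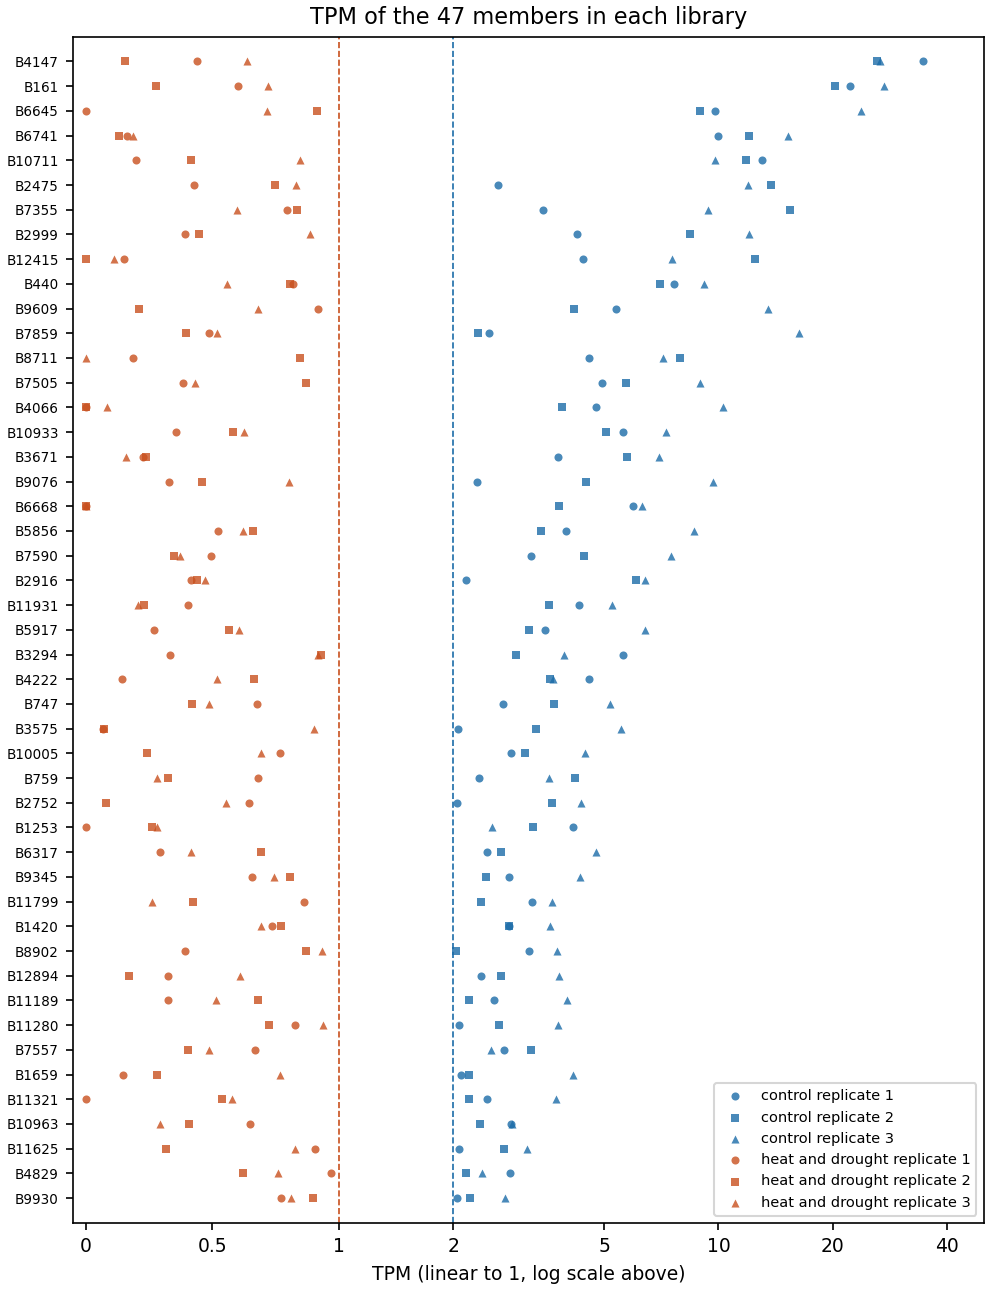
TPM of each of the 47 loci in each of the 6 libraries, with the loci ordered by mean control TPM; the axis is linear to 1 TPM and logarithmic above. Blue symbols are control and red symbols heat and drought libraries, the dashed lines mark the limits of 2 and 1 TPM that chose the loci, and the gap between the lines is empty by that choice.

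The loci had been picked out as switched off under stress, and the counts do not bear that name out. Reads were present in at least 1 stressed library for 46 of the 47 loci and in all 3 for 40, and they are therefore called here loci that fell under 1 TPM. Of the 141 stressed values, 10 were 0 and 21 were 3 counts or fewer, the median was 10 counts and the highest 63. Only B6668 was at 0 in all 3 stressed libraries. It is the shortest of the loci (149 bp, effective length 20.3 bp), and its 5.96, 3.80 and 6.28 TPM in control were 3, 2 and 3 counts. Taking the 3 counts over the group that a count of 0 allows, it was 1.81-fold lower under stress at this bound. The bound takes the few control counts as free of error, so the difference could also be smaller. A further 6 loci had 0 counts in 1 or 2 stressed libraries, namely B6645, B12415, B8711, B4066, B1253 and B11321.

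Apart from B6668, 2 loci, named after their values were seen, had 3 counts or fewer in every stressed library. B4066 (707 bp, minus strand) fell from 66, 56 and 135 counts in control (4.76, 3.87 and 10.3 TPM) to 0, 0 and 1 count (0, 0 and 0.0816 TPM). Its log2 fold change of -7.07 (SE 0.83) was the lowest of the 46 loci tested, and the fold of 174 on normalised counts had a counting interval of 31.0 to 6917. B1253 (636 bp, plus strand) had 50, 41 and 29 counts in control (4.13, 3.24 and 2.53 TPM) and 0, 3 and 3 counts under stress (0, 0.261 and 0.280 TPM), with a log2 fold change of -3.70 (SE 0.70). In both loci the lowest control library held several times the reads of the highest stressed one, but the stressed level itself was at the floor of detection.

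What 1 TPM was worth in reads varied with length. Under stress it stood for 23.9 estimated counts in the median locus, 69.8 in the longest and 0.476 in the shortest. It was under 10 counts in 3 loci, B7355, B6668 and B11280, where a handful of reads decided the side of the limit. Poisson 95% intervals of the counts, which cover counting error only, lay wholly under 1 TPM for 80 of the 141 stressed values. They did so in all 3 stressed libraries for 10 loci and in none for 7. In control, the interval lay at 2 TPM or more for 110 values and in all 3 libraries for 24 loci. All 6 intervals were inside the limits in 7 loci: B4147, B6741, B12415, B4066, B3671, B5856 and B11931. For each of the others, the interval of at least 1 library reached across its limit.

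**Figure D4:**
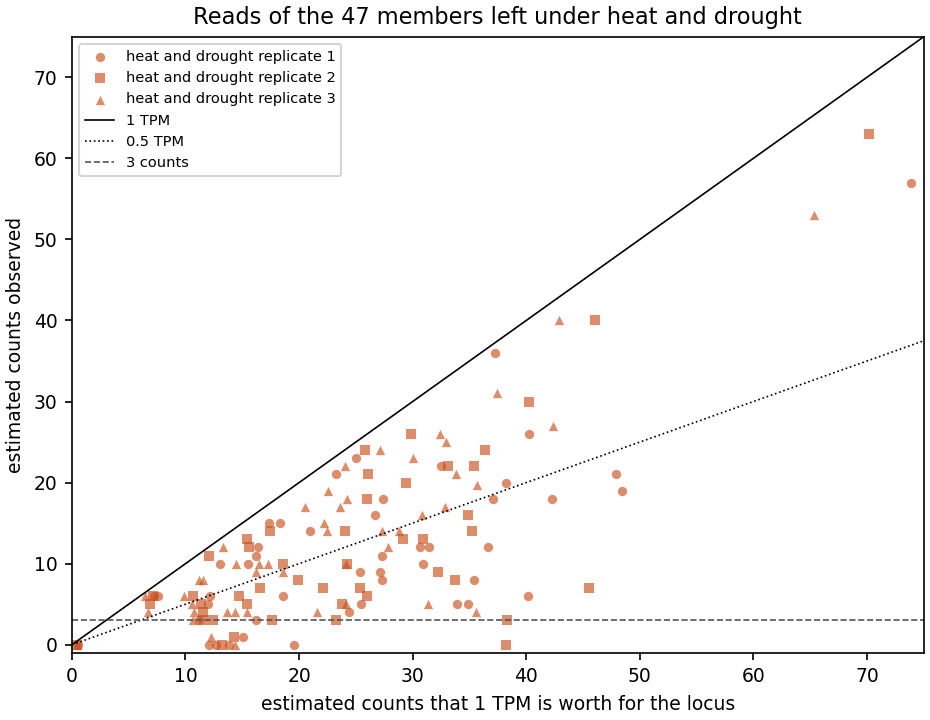
Estimated counts of the 47 loci in each heat and drought library against the counts that 1 TPM is worth for that locus and library. Points under the solid line are under 1 TPM, as the choice of loci requires, the dotted line marks 0.5 TPM, and 21 of the 141 points lie at or under the dashed line at 3 counts.

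The loci also differed in how much of the control level was left. The percentage of control TPM left under stress had a median of 9.66% and ran from 0 to 35.4%. These percentages carry no TMM correction, and on the same scale the other expressed loci kept a median of 70.3%. The numbers of loci under 5%, under 10% and over 20% therefore hold for uncorrected TPM only. It was under 5% in 9 loci (B4147, B161, B6645, B6741, B10711, B12415, B4066, B3671 and B6668) and over 20% in 7 (B9345, B1420, B8902, B11280, B11625, B4829 and B9930). The 5 loci at 10 TPM or more in control were all among the first set, and for them the limits alone require less than 10% to be left. A fall to under 10% was not restricted to the 47, since 14 other loci fell as far in proportion, from a median of 27.2 and up to 333 TPM in control, with at least 1 stressed library above 1 TPM. The furthest of these were B7537, at 30.8, 46.5 and 51.7 TPM in control and 1.35, 1.17 and 2.68 under stress, and B8553, at 30.5, 22.8 and 77.7 against 1.48, 1.02 and 3.72.

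At the other end stood the loci nearest the limits. B8902 (2100 bp, minus strand) was close to both, with 3.18, 2.03 and 3.74 TPM in control (154, 103 and 172 counts) and 0.392, 0.868 and 0.933 TPM under stress (19, 40 and 40 counts). B2752 (1771 bp, plus strand) had 2.04, 3.65 and 4.35 TPM in control and 0.644, 0.0783 and 0.553 TPM under stress. B9930, the longest of the loci (3123 bp, minus strand), had 2.04, 2.22 and 2.74 TPM in control (151, 171 and 192 counts) and 0.772, 0.897 and 0.811 TPM under stress (57, 63 and 53 counts). With reads in every library, B9930 showed the smallest change of the 46 loci tested, a log2 fold change of -1.01 (SE 0.22), whereas B8902 stood at -1.56 (SE 0.34) and B2752 at -2.46 (SE 0.55).

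Nearest the limit of 1 TPM was B4829 (1649 bp, plus strand), with 2.82, 2.16 and 2.38 TPM in control (105, 84 and 84 counts) and 0.967, 0.621 and 0.758 TPM under stress (36, 22 and 25 counts). B11280 (441 bp, plus strand) had 2.07, 2.64 and 3.78 TPM in control (15, 20 and 26 counts) and 0.828, 0.725 and 0.935 TPM under stress (6, 5 and 6 counts). Their log2 fold changes were -1.15 (SE 0.33) and -1.27 (SE 0.56), similar in size, but that of B11280 rested on far fewer reads.

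Loci just outside had much the same values. B8426 missed the control limit with 2.35, 1.9999 and 5.17 TPM, against 0.190, 0.200 and 0.859 under stress. B464 missed it with 2.29, 1.99 and 2.87 TPM against 0.293, 0.645 and 0.663. The stressed limit was missed by B4912, at 1.03, 0.954 and 0.778 TPM after 3.13, 3.98 and 3.76 in control, and by B11706, at 0.508, 0.961 and 1.03 TPM after 2.13, 2.87 and 4.50. Of the 47 loci, 19 had a lowest control value between 2 and 2.5 TPM and 19 a highest stressed value between 0.8 and 1 TPM. Just beyond, 24 loci had a lowest control value between 1.5 and 2 TPM and 57 a highest stressed value between 1 and 1.5 TPM. The limits thus cut through a continuous range of loci.

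Across all loci, edgeR's quasi-likelihood test called 666 of 12726 loci lower under heat and drought (5.23%) at an adjusted p under 0.1 and a log2 fold change of -1 or less. Of the 47, 46 were tested and 45 called lower. The test used the values that chose the loci, so nothing is read from that count. B6668 was removed by the filter on low counts, and B11280 was tested and not called. The median log2 fold change of the 46 was -2.79, and -2.70 with B6668 put at its bound. By the choice of loci every stressed TPM lay under every control TPM, which was also the case for 63% of the 8718 expressed loci. TPM carries no TMM correction, so the 63% cannot be set beside the share called by the test. It was not computed on the corrected scale.

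Values that the choice did not use came from choosing the loci anew on 5 libraries and reading the sixth. Without control replicate 1, 58 loci were chosen, of which 81.0% stood at 2 TPM or more in that library, and the share was 78.3% of 60 for control replicate 2 and 92.2% of 51 for control replicate 3. Of all loci that passed in the other 2 control libraries, 99.1% to 99.2% did so, and hence the chosen loci sat nearer to the limit than expressed loci in general. For the stressed libraries, 81.0% of 58, 78.3% of 60 and 65.3% of 72 loci stood under 1 TPM in the library left out (replicates 1, 2 and 3), against 1.57%, 1.27% and 0.929% of the 8718 expressed loci. A locus under 1 TPM in 2 stressed libraries was thus under it in the third in most cases. The chosen loci that also met the limit in the library left out were the same 47 each time. These shares are therefore not separate evidence.

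When 1 control and 1 stressed library were left out together, in 9 ways, 62 to 95 loci were chosen on the other 4 and 49.5% to 75.8% of them met both limits in the pair left out. The TPM was lower in the left-out stressed library than in the left-out control library for 95.9% to 100% of these loci, beside 77.2% to 83.0% of all single-isoform loci. The median TPM left was 8.45% to 28.9% of control. In the pair left out, the direction was thus the same for most chosen loci, while the position relative to 1 and 2 TPM often was not. The same 47 loci met both limits each time, so the 9 ways are not separate evidence. All single-isoform loci were not matched to the chosen loci for control level. The direction was read on TPM without the TMM correction, on which the other expressed loci kept a median of 70.3% of control. It was not read on the corrected scale for the pairs.

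The control libraries differed more at these loci than elsewhere. The coefficient of variation of control TPM had a median of 29.4% (range 10.8% to 114%) in the 47 loci, against 12.5% in the other loci. Lower loci varied more in general. Within each class of control level that held any of the 47, their median was still above that of all expressed single-isoform loci. It was 28.5% (26 loci) against 18.5% at 2 to 5 TPM, and 48.6% (16 loci) against 14.7% at 5 to 10 TPM. At 10 to 50 TPM it was 16.3%, from only 5 loci, against 11.1%. Loci within a class were not matched for length or counts. Among the 394 other expressed single-isoform loci called lower, the median over all levels was 22.5%, between 29.4% and 12.5%.

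Much of this spread lay in control replicate 3. It was the highest control library in 35 of the 47 loci (74.5%), and replicates 1 and 2 were highest in 6 each. The share was 75.4% in the 394 other loci called lower and 50.5% in the other expressed loci, so it was about the same in both sets of lowered loci. It exceeded 1.5 times the higher of the other 2 control libraries in 15 of the 47 (31.9%), in 20.1% of the 394 and in 3.98% of the other expressed loci. Without it the median log2 fold change of the 46 loci was -2.40. Among the stressed libraries, replicate 1 was highest in 14, replicate 2 in 13 and replicate 3 in 19 of the 46 loci that had reads under stress. The limit of 1 TPM caps every stressed value, so these counts cannot show whether 1 stressed library tends to be higher. In loci chosen without a stressed library, the median TPM in that library was 0.509, 0.601 and 0.762 for replicates 1 to 3. Whether the control plants differed in stage or state at harvest was not tested.

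**Figure D5:**
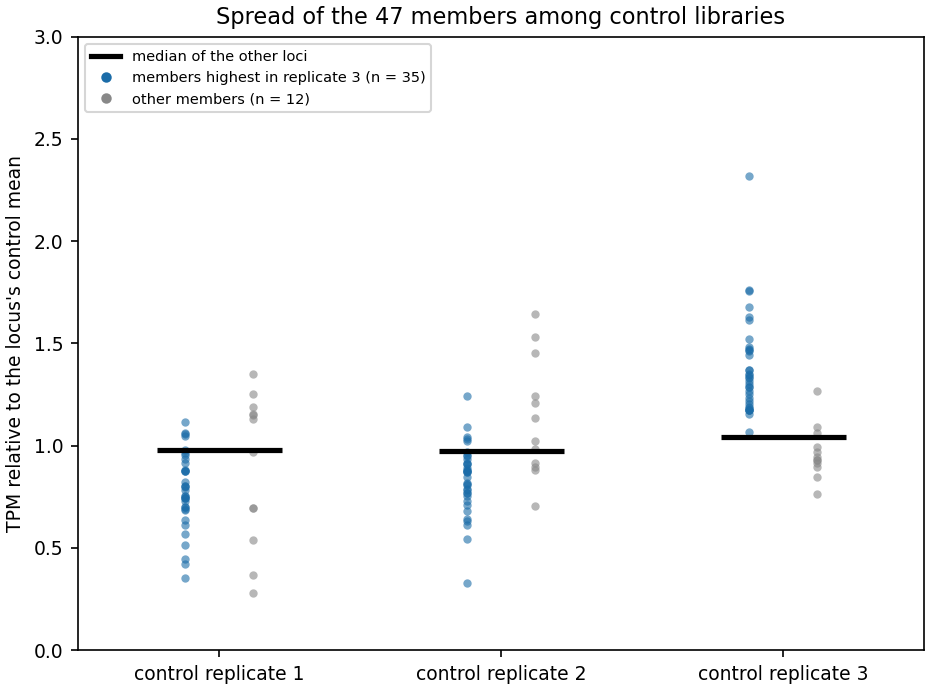
TPM of the 47 loci in each control library, divided by the mean of the locus over the 3 control libraries; blue points are the 35 loci highest in replicate 3 and grey points the other 12. Black bars are the medians of the 8671 other loci, which stood at 0.98, 0.973 and 1.04, while the blue points of replicate 3 reach above 2. TPM carries no TMM correction.

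Length and strand played no direct part in the choice. The median model was 1169 bp long (quartiles 786.5 and 1534.5 bp), against 1362 bp (quartiles 948 and 1831 bp) for the other expressed loci and 1201 bp for the other loci called lower. Of the 47, 29 were on the plus strand (61.7%), beside 50.5% of the other loci. Estimated counts were whole numbers, within 0.01, in all 6 libraries for 43 of the 47 (91.5%) and for 90.9% of the other loci, so for most loci no read was divided between models. The 4 loci with fractional counts, where reads were shared with another model, were B9609, B2752, B1659 and B11321, and their values are uncertain to that extent.

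Loci next by number to the 47 were examined after the values had been seen, and the sources do not state whether numbers follow position in the genome. No 2 of the 47 had consecutive numbers. Of the 94 loci next to them, 86 were tested and 12 were called lower (14.0%, beside 5.23% of all loci). The 12 include B2753 and B11322, whose fractional counts point to reads shared with B2752 and B11321. Calls of these 2 are thus not independent of the choice. The median log2 fold change of the 86 was -0.14, beside -0.02 over all B loci tested. The lowest pair was B4065 and B4066, both on the minus strand and with whole counts. B4065, which has 2 isoform models, fell from 245, 228 and 550 counts in control to 3, 5 and 2 under stress, with a log2 fold change of -6.08 (SE 0.53), and both loci were highest in control replicate 3. B11322, next to B11321, fell from 21.9, 30.3 and 37.1 TPM in control to 0.360, 0.920 and 4.53 TPM, with a log2 fold change of -3.52 (SE 0.67).

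Fractional counts pointed to reads divided with 3 of the loci next by number. The fractional counts of B2752 and B2753 summed to whole numbers in 5 of 5 libraries with fractions, although the models lie on opposite strands. B2753 was at 4.83, 3.65 and 10.01 TPM in control and 0.829, 0.547 and 1.37 TPM under stress, with a log2 fold change of -2.27 (SE 0.41). The sum was also whole in 1 of 1 library for B1659 with B1660 and for B11321 with B11322, and in none of 3 for B9609 with either neighbour. For B2752 and B2753 the division of reads between the models is thus an estimate, and their separate changes are uncertain.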

How the data were processed

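RNA-seq libraries of developing N22 seeds (3 control, 3 heat and drought) were made with a directional kit and quantified by the authors with kallisto 0.45 against a long-read N22 transcriptome. Read trimming and the strand setting are not given in the sources used here. Each deposited file gives estimated counts and TPM per isoform model. The authors' TPM divides the counts by effective length and scales the results to the same total in every library. A deposited per-locus table of the whole series was not used, and 0 columns of values lacked a sample. The submitters' processing notes also name DESeq2.

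Estimated counts and TPM were summed per locus and the counts rounded. Loci were tested with edgeR 4.0.16 (R 4.3.3, quasi-likelihood, robust, TMM factors, filterByExpr at min.count 10). Each SE was derived from that test, as the absolute log2 fold change divided by the square root of its F statistic. It is not a fitted standard error, and for loci with few stressed counts it is only a rough guide. A call required a Benjamini-Hochberg adjusted p under 0.1 together with a log2 fold change of 1 or more in either direction. The procedure was tested on simulated data. Alternatives were DESeq2 1.42.0, limma 3.58.1 on log2 TPM, other scalings, filters and limits, and leaving out each library. Library totals were 20623931 to 24624992 rounded counts, and intervals cover counting error only.

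The loci and the lists were chosen with earlier results of these data known. Loci described singly were the 6 highest in control TPM, the next 4 by control counts, those at 0 in all stressed libraries, the 3 nearest each limit with the 2 just outside it, the 2 with the largest control ratio, and pairs with consecutive numbers. Others are said to be named after their values were seen, or are listed to account for a count. No sequences are shown.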

Additional observations from a re-analysis of the deposited data

How the results depend on the processing

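The number of loci meeting the limits depended on the limits and the scale. It was 47 as reported, 204 at under 2 TPM under stress, 9 at under 0.5 TPM, 124 at 1 TPM or more in control, 7 at 5 TPM or more in control, and 51 to 72 with a library left out. Dividing TPM by the TMM factors left 32 loci, requiring 10 counts in every control library 46, and CPM with TMM factors in place of TPM, which also drops the length correction, gave 14, of which 11 were among the 47. Loci called lower numbered 666 with edgeR, 703 with DESeq2, 660 with RLE factors, 1528 with library sizes alone, 1286 with limma on log2(TPM + 1), 1299 with limma and no filter, and 1810 with limma on log2(TPM + 0.1), and 533 to 807 with a library left out. Library sizes alone moved the median log2 fold change of all loci to -0.40, and limma moved it to -0.44 and -0.49 (pseudocounts of 1 and 0.1). The median of the selected loci was -3.18 with library sizes alone, -1.86 with limma on log2(TPM + 1) with or without the filter, and -2.90 to -2.40 with a library left out.

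Correlations of deviations between same-numbered control and stressed libraries were 0.17, 0.03 and 0.24. No values for differently numbered libraries are at hand, so whether replicate numbers pair the libraries cannot be judged. With the replicate block, 687 loci were called lower, 651 of them shared, and 45 of the selected loci.

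Of 225 values of single loci under the alternatives, 179 stayed, 46 moved and 0 reversed. B9930 was not called without control replicate 3 (-0.92) or heat and drought replicate 3 (-0.95), with a prior count of 2 (-0.99), or with limma on log2(TPM + 1) (-0.86). B4829 was not called without heat and drought replicate 2 (-0.997) or with limma on log2(TPM + 1) (-0.95), and B7859 without heat and drought replicate 1 (-3.48) or 3 (-3.41). With a library left out, B6645 ran from -4.86 (without heat and drought replicate 2) to -3.66 (without heat and drought replicate 1). The depth, a median of 10 counts under stress, limits how low a level can be shown.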
